A study of Homo sapiens with 3 samples.

Results

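The genes described here are 9 transcription factors of small cell lung cancer: NEUROD1, INSM1, NKX2-1, FOXA1, FOXA2, SOX2, PROX1, POU2F3 and the repressor REST. They were listed by name as lineage factors, with no threshold on a measured value in the rule, but with earlier results of these data known. All 9 were found among the 60609 genes of the count tables. RNA sequencing was done on NCI-H209, a human cell line long established from small cell lung cancer, with neuroendocrine features, after lentiviral delivery of a doxycycline-inducible short hairpin RNA. The libraries sh490 and sh1362 each carried a different hairpin against YES1, a Src-family tyrosine kinase, and shGFP carried a hairpin against green fluorescent protein, which human cells lack. All 3 libraries therefore come from the same line, carry an integrated hairpin cassette and received doxycycline at 1 µg/mL every 2 days. Whether infection and the drug acted equally in each of them was not tested. There was 1 library per hairpin, and the time from induction to harvest is not given in the sources used here.

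Small cell lung cancer is sorted into subtypes by the lineage factor that leads its transcription. Neuroendocrine tumours run programmes led by basic helix-loop-helix factors such as NEUROD1, together with INSM1 and PROX1, whereas the tuft cell-like subtype depends on POU2F3 and lacks neuroendocrine genes. NKX2-1, FOXA1 and FOXA2 belong to the lung and foregut programme, and SOX2 to progenitor cells of the foregut and nervous system. REST works in the opposite sense: it binds the RE1 element of neuronal genes and keeps them silent in other tissues, so neuroendocrine cells usually hold it low.

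The targeted gene was lower with both hairpins. YES1 had 163 counts with sh490, 216 with sh1362 and 1465 with shGFP, which left 6.79% and 9.66% of the control level (edgeR quasi-likelihood test of both hairpins against shGFP, log2 fold -3.60, SE 0.30, adjusted p 0.00761). Library totals ran from 4899006 counts in shGFP to 7791747 in sh490, and mitochondrial transcripts took 5.47% to 7.78% of them. All 18 neuroendocrine markers looked at had reads in every library, among them CALCA, the calcitonin gene, at 2178 to 2779 RPKM (reads scaled to exon length and library size, with TMM), and the epithelial adhesion gene EPCAM stood at 306 to 328 RPKM. The shGFP library stood apart by transcripts of red blood cell marker genes, whose origin is not known. The summed level of 10 such markers was 737.2 CPM there against 18.8 in sh490 and 20.5 in sh1362, and only 3 of them reached a mean of 5 CPM. Of those markers 4 had no read in any library. None of the 9 factors is on that marker list, and the part of these transcripts in the differences of the factors was not tested. Summed levels of 10 leukocyte markers were 2.40 to 9.95 CPM and of 10 fibroblast and endothelial markers 12.4 to 27.4 CPM.

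In the control, FOXA2, NEUROD1 and INSM1 led, and POU2F3 was not detected. Their levels, as RPKM in shGFP with exact 95% intervals of the count, were 42.3 for FOXA2 (38.8 to 46.0), 41.9 for NEUROD1 (38.8 to 45.2) and 38.5 for INSM1 (35.3 to 42.0). These neighbours could not be ordered within counting error: the ratio of FOXA2 to NEUROD1 was 1.01 (0.898 to 1.13), and that of NEUROD1 to INSM1 was 1.09 (0.970 to 1.22). SOX2 followed at 21.5 RPKM (18.9 to 24.2), lower than INSM1 by a ratio of 1.80 (1.55 to 2.09). PROX1 at 13.7 RPKM and NKX2-1 at 13.4 RPKM lay below SOX2 and were not separable from each other, with a ratio of 1.03 (0.874 to 1.21). FOXA1 stood at 4.32 RPKM (3.48 to 5.30), under NKX2-1 by a ratio of 3.09 (2.41 to 4.0). REST was the lowest detected factor at 2.6 RPKM (2.11 to 3.16), below FOXA1 by a ratio of 1.66 (1.24 to 2.23). The leading factors lay at percentiles 92.8 to 93.5 of protein-coding genes with a read in shGFP, FOXA1 near the middle and REST at the 39.7th. Intervals cover counting error within a library only. Reads carried no molecular identifiers and may be copies, in which case the intervals are too narrow. Levels between genes rest on the full exon length of each gene.

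**Figure D1:**
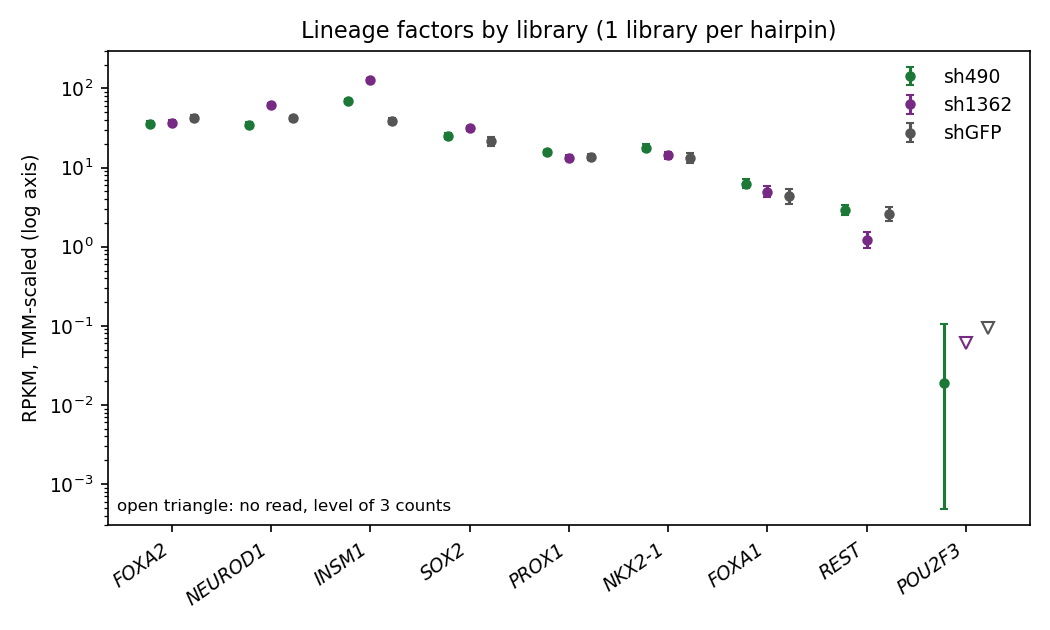
Level of each lineage factor in each library, as RPKM on a log axis, with exact 95% counting intervals as bars. FOXA2, NEUROD1 and INSM1 lie together between 38.5 and 42.3 RPKM in shGFP, and POU2F3 is a point for its 1 read in sh490 and open triangles at 3 counts for the libraries with none.

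No lineage factor passed the test of both hairpins against shGFP. In the edgeR quasi-likelihood test 0 of the 8 tested factors were called at an adjusted p under 0.05, against 0.0255% of all 15708 tested genes, and 1, INSM1, had an unadjusted p under 0.05, as 4.35% of all tested genes had. DESeq2 and limma-voom also called 0 of them, where they called 0.0318% and 0.0127% of all genes. Without its filter on low counts edgeR called 1, again INSM1, and 0.21% of all genes. The lone control and 1 residual degree of freedom limit this test. That degree of freedom is the difference between sh490 and sh1362, moderated across genes. The spread behind the p-values therefore holds differences between the hairpins as well as technical ones, and these cannot be told apart. The labels do not say that libraries came from separate cultures. By direction, 4 of the 8 factors that average at least 5 CPM were higher with both hairpins (INSM1, NKX2-1, FOXA1 and SOX2), 1 was lower with both (FOXA2) and 3 lay in opposite directions (NEUROD1, PROX1 and REST). Of all 11638 genes at that level, 33.8% were higher with both, 34.5% lower with both and 31.8% opposite. Both folds of a gene share the shGFP library. The factors had a median log2 fold of 0.20 for sh490 and 0.15 for sh1362, beside 0.00 and -0.01 for all genes.

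By size, 0 of the 8 factors lay 2-fold or more from shGFP with sh490, where 1.39% of genes lay that far above and 1.42% that far below. With sh1362, INSM1 lay above that limit and REST below it, where 3.3% of genes were higher and 6.0% lower. Between the hairpins, 0 factors were 2-fold higher in sh1362 than in sh490 and REST was 2-fold lower, where 2.02% of genes were higher and 3.88% lower. Each single-hairpin difference compares 1 library with 1 library and has no replicate check. Because RNA came from whole cultures, a lower level in each cell and fewer cells with the transcript cannot be told apart.

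**Figure D2:**
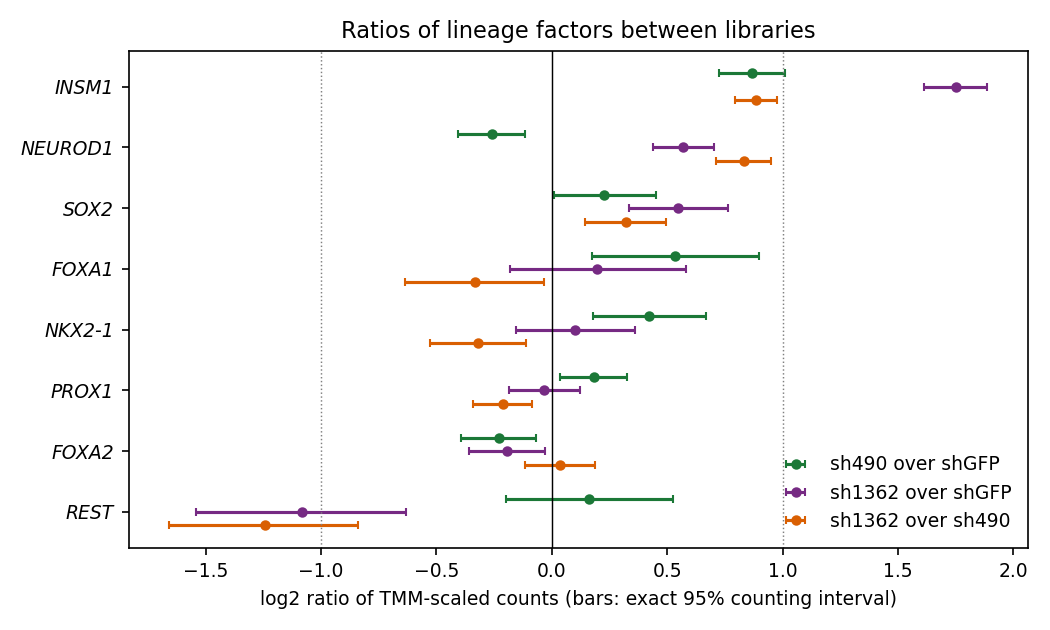
Log2 ratios of each detected lineage factor, with sh490 over shGFP, sh1362 over shGFP and sh1362 over sh490 as separate points. Bars are exact 95% counting intervals. INSM1 is highest with both hairpins, at 0.87 and 1.75, and REST is 0.16 with sh490 and -1.08 with sh1362.

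INSM1, a zinc finger repressor that helps neuroendocrine progenitors differentiate, showed the largest shared difference of the 9 genes. INSM1 (ENSG00000173404.5, chr20:20368104-20370949 on the plus strand of GRCh38) had 1580 counts with sh490, 2716 with sh1362 and 529 with shGFP, or 70.2, 129.6 and 38.5 RPKM. Both hairpin libraries were high and their counting intervals did not overlap that of the control. Relative to shGFP the level was 1.82-fold with sh490 (95% counting interval 1.65 to 2.01) and 3.36-fold with sh1362 (3.06 to 3.70). The hairpins also differed from each other, by 1.85-fold (1.73 to 1.96). The both-hairpin log2 fold was 1.37 with an SE of 0.41 (edgeR, p 0.0120, adjusted p 0.986), higher in 2 of 2 hairpin libraries. This call depends on the filter: without the filter on low counts the edgeR adjusted p was 0.00699, and over all alternatives it ran from 0.00699 to 1.00. With sh1362, 143 of 11638 genes lay farther from shGFP than INSM1 did, and 157 genes higher with both hairpins had a larger value of the smaller fold.

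NEUROD1, a helix-loop-helix activator of neuronal and endocrine genes, lay in opposite directions with the hairpins. NEUROD1 (ENSG00000162992.3, chr2:181673088-181680876, minus strand) had 917 counts with sh490, 1519 with sh1362 and 670 with shGFP, or 35, 62.3 and 41.9 RPKM. The sh1362 library was the high one and sh490 the low one, with the control between them. The level was 0.835-fold with sh490 (0.755 to 0.924) and 1.48-fold with sh1362 (1.36 to 1.63), so sh1362 exceeded sh490 by 1.78-fold (1.64 to 1.93). For both hairpins the log2 fold was 0.21 with an SE of 0.38 (edgeR, p 0.588, adjusted p 0.986), smaller than its error. Exons of CERKL on the same strand cover 7.13% of the NEUROD1 exon length, and reads there were left out of the counts.

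Factors that work beside NEUROD1 gave a mixed picture. Of 36 neural and neuroendocrine factors, 5 had no read and 13 reached a mean of 5 CPM, of which 4 were higher with both hairpins, 6 lower with both and 3 opposite, with median log2 folds of -0.03 and -0.00. NEUROD4, a related helix-loop-helix activator, had 70 counts with sh490, 51 with sh1362 and 20 with shGFP, log2 folds of 1.04 and 0.70. HES6, which antagonises Notch-induced repressors and was the most abundant of the list in shGFP at 37.0 RPKM, had log2 folds of 0.59 and 0.52. SOX11, a neural progenitor factor, was on the other side at 397, 244 and 345 counts, log2 folds of -0.51 and -1.10. MYT1, a neural zinc finger factor, was lower by less, with log2 folds of -0.11 and -0.16. Of the 7 helix-loop-helix partners and Id proteins, 2 were higher with both hairpins, 1 lower with both and 4 opposite. The Id protein ID1, which sequesters the partners of factors such as NEUROD1, had 277, 179 and 70 counts and log2 folds of 1.25 and 0.73. Its relatives ID2, ID3 and ID4 were higher with sh490 and lower with sh1362. Among the partners, TCF3 had log2 folds of 0.20 and 0.13, TCF12 -0.12 and -0.28, and TCF4 0.84 and -0.04. TCF4 and ID4 were named after their values were seen. None of these genes passed the edgeR test at an adjusted p under 0.05, and ID1 and SOX11 were the 2 with an unadjusted p under 0.05.

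NKX2-1 and FOXA1 shared a pattern of small differences, larger with sh490 than with sh1362. NKX2-1 is the homeobox factor of lung and thyroid development, and FOXA1 is a forkhead pioneer factor that opens chromatin in foregut epithelium. NKX2-1 (ENSG00000136352.17, chr14:36516392-36521149, minus strand) had 448 counts with sh490, 334 with sh1362 and 204 with shGFP, or 17.9, 14.3 and 13.4 RPKM. Its level was 1.34-fold with sh490 (1.13 to 1.59) and 1.07-fold with sh1362 (0.898 to 1.28), so the second hairpin was not separable from the control. FOXA1 (ENSG00000129514.6, chr14:37589552-37596059, minus strand) had 218, 161 and 92 counts, or 6.25, 4.95 and 4.32 RPKM. Its level was 1.45-fold with sh490 (1.13 to 1.87) and 1.15-fold with sh1362 (0.882 to 1.5), again with sh1362 inside counting error. The both-hairpin log2 folds were 0.27 for NKX2-1 (SE 0.31) and 0.37 for FOXA1 (SE 0.36), both near their errors (edgeR, p 0.414 and 0.332, adjusted p 0.986 for each). NKX2-1 exons share 12.7% of their length with those of the antisense gene NKX2-1-AS1, which had 42, 19 and 21 counts, and strand was not used in counting.

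NKX2-1 and FOXA1 are the members whose promoter windows in the table used here held both words searched for their own factor classes, so the windows are shown. They come from RefSeq (GRCh38.p14), each 250 bases before to 50 after an annotated start, 5′ to 3′ on the gene's strand. The NKX2-1 window with both words is at chr14:36519507-36519806 and that of FOXA1 at chr14:37595200-37595499, both on the minus strand. Another NKX2-1 window, chr14:36520183-36520482, held a forkhead word without the NKX2-1 word and is not printed. Capitals mark the forkhead word, TGTTTAC or TGTTTGC, and the NKX2-1 word, CAAGTG, on either strand.
NKX2-1: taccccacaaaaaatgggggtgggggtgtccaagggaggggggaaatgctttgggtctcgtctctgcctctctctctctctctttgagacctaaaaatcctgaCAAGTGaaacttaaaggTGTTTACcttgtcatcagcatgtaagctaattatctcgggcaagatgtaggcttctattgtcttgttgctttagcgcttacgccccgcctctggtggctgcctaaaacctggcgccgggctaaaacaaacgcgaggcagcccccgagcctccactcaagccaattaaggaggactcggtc
FOXA1: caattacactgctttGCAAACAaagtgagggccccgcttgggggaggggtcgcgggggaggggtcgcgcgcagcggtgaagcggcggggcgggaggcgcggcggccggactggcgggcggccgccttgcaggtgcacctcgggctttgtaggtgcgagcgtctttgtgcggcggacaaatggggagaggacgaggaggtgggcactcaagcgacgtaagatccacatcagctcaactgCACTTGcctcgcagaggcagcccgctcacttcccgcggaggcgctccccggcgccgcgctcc

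In the printed NKX2-1 window the forkhead word begins 130 bases before the start and the CAAGTG word 147 before it. In FOXA1 both words lie on the opposite strand, at 235 and 12 bases before the start. Of 35116 promoter windows of 300 bases, 7.17% held a forkhead word, 11.5% held CAAGTG and 1.04% held both, so single matches are common. Windows were also found for NEUROD1, SOX2 and REST, 5 members in all. A match describes letters in the window and is not a binding site, and the windows were chosen for printing after the values had been seen.

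FOXA2, the related forkhead factor, was among the 3 leading factors in the control and the 1 of the 8 that was lower with both hairpins. FOXA2 (ENSG00000125798.14, chr20:22581005-22585455, minus strand) had 742 counts with sh490, 708 with sh1362 and 531 with shGFP, or 36.1, 36.9 and 42.3 RPKM. Its level was 0.852-fold (0.762 to 0.955) and 0.873-fold (0.779 to 0.979) of the control, and the hairpin libraries lay close together with a ratio of 1.02 (0.923 to 1.14). The log2 fold was -0.21 with an SE of 0.27 (edgeR, p 0.455, adjusted p 0.986). Their family member FOXA3, which was not among the 9, had log2 folds of 0.54 and 0.67.

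Among 28 other airway and endoderm factors, 16 reached a mean of 5 CPM, with 8 higher with both hairpins, 6 lower with both and 2 opposite, median log2 folds 0.10 and -0.01. HNF4A, a nuclear receptor of liver and gut, had 253 counts with sh490, 289 with sh1362 and 113 with shGFP, log2 folds 0.44 and 0.74. ETV4 and ETV5, ETS factors induced by growth factor and ERK signalling, lay lowest when ranked by the lesser of both folds. ETV4 had 364, 140 and 340 counts, log2 folds -0.61 and -1.87, and ETV5 had 287, 182 and 233, log2 folds -0.41 and -0.96. Of these factors 0 passed the edgeR test and 0 had an unadjusted p under 0.05.

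Genes that NKX2-1 and FOXA factors are known to control in lung split in both directions. Of 20 listed, 4 had no read and 11 reached a mean of 5 CPM, with 5 higher with both hairpins, 4 lower with both and 2 opposite. The list holds FOXA1 and FOXA2 themselves, and without them 4 of 9 were higher with both and 3 lower with both. LAMP3, a lamellar body protein of alveolar type II cells, had 266, 415 and 111 counts in sh490, sh1362 and shGFP, log2 folds 0.54 and 1.28. Surfactant protein B, SFTPB, had 75, 109 and 33 counts, log2 folds 0.45 and 1.08. The surfactant gene SFTPA2 was on the other side at 46, 49 and 74 counts, log2 folds -1.35 and -1.17, but it has a near-identical copy, SFTPA1, so its counts are uncertain. LAMP3 and SFTPA2 had an unadjusted edgeR p under 0.05, and 0 of the list passed the adjusted test.

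SOX2 was somewhat higher with both hairpins, and PROX1 had the smallest both-hairpin fold of the 8 factors. SOX2, a factor of progenitor cells that is often amplified in small cell cancer (ENSG00000181449.4, chr3:181711925-181714436, plus strand), had 499 counts with sh490, 580 with sh1362 and 260 with shGFP, or 25.1, 31.4 and 21.5 RPKM. Its level was 1.17-fold with sh490 (1.01 to 1.37) and 1.46-fold with sh1362 (1.26 to 1.70), so both were higher and sh1362 by more. The log2 fold was 0.40 with an SE of 0.31 (edgeR, p 0.230, adjusted p 0.986). PROX1, a homeobox factor of neuroendocrine and lymphatic cells (ENSG00000117707.16, chr1:213983181-214041510, plus strand), had 1098, 882 and 591 counts, or 15.5, 13.4 and 13.7 RPKM. Its level was 1.13-fold with sh490 (1.02 to 1.25) and 0.978-fold with sh1362 (0.880 to 1.09), and its both-hairpin log2 fold of 0.08 (SE 0.28) was the smallest in size of the 8 (edgeR, p 0.785, adjusted p 0.994).

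**Figure D3:**
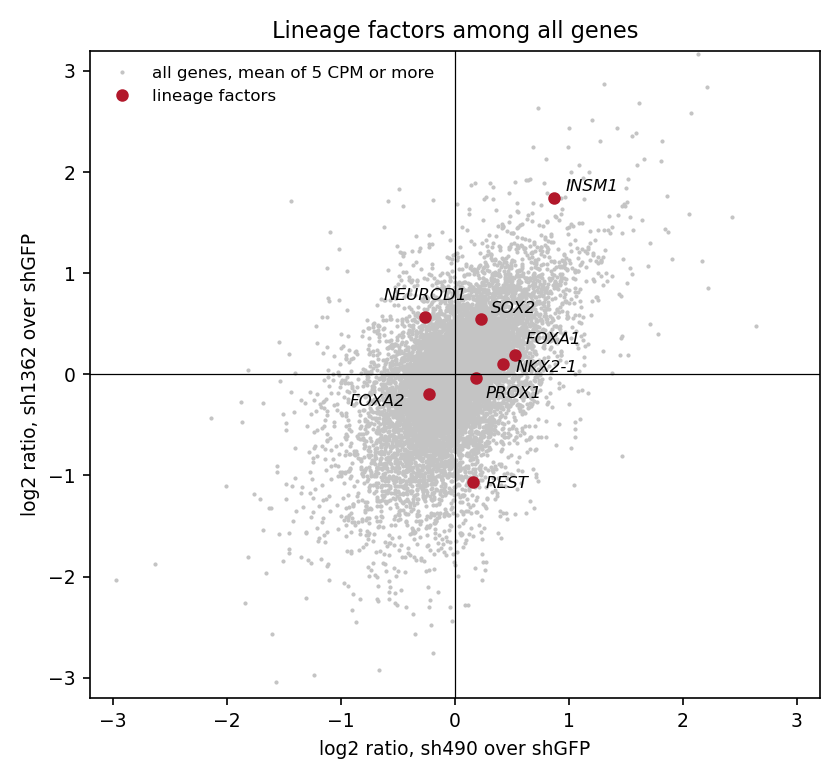
Log2 fold with sh490 (horizontal) against log2 fold with sh1362 (vertical) for the 11638 genes that average at least 5 CPM, in grey, with the detected lineage factors named. INSM1 lies to the upper right, REST lies low, and the other factors lie within 2-fold of the control on both axes, while 8 genes fall outside the plotted range.

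POU2F3, the POU homeobox factor of tuft cells and of the tuft cell-like subtype, was at or under the limit of detection. POU2F3 (ENSG00000137709.10, chr11:120236640-120319945, plus strand) had 1 count in sh490 and 0 in sh1362 and shGFP. A count of 0 allows up to 3 counts, which equals 0.0608 RPKM in sh1362 and 0.0928 RPKM in shGFP, so a fold change is not defined for it. Of 21 genes of the tuft cell programme, 9 had no read in any library and 7 reached a mean of 5 CPM, of which 5 were lower with both hairpins and 2 higher with both. The POU2F3 coactivator POU2AF2 was present at 93, 66 and 57 counts, log2 folds -0.01 and -0.39, and its relative POU2AF3 at 59, 94 and 30 counts, log2 folds 0.25 and 1.00. Exons of COLCA1 on the opposite strand cover 21.2% of the POU2AF3 exon length, and COLCA1 had 5394, 2104 and 3145 counts. AVIL, an actin-severing protein of tuft cells, had log2 folds of -0.76 and -0.19. Of this list 0 genes passed the edgeR test and 0 had an unadjusted p under 0.05.

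REST differed between the hairpins more than any other lineage factor. REST (ENSG00000084093.17, chr4:56907876-56966678, plus strand) had 183 counts with sh490, 72 with sh1362 and 100 with shGFP, or 2.90 RPKM (2.49 to 3.35), 1.22 (0.958 to 1.54) and 2.6 (2.11 to 3.16). The sh1362 library alone was low, and its interval did not overlap those of the others, which overlapped each other. Its level was 1.12-fold of the control with sh490 (0.870 to 1.44) and 0.472-fold with sh1362 (0.343 to 0.645), and sh1362 was 0.422-fold of sh490 (0.317 to 0.558). For both hairpins the log2 fold was -0.33 with an SE of 0.53 (edgeR, p 0.553, adjusted p 0.986). REST and NOA1 share 0.288% of the REST exon length.

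Genes that REST represses in non-neuronal tissue lay higher in sh1362, the library with low REST, than in sh490. Of 48 REST target genes, a list chosen with earlier results of these data known, 33 reached a mean of 5 CPM. Of these, 28 were higher in sh1362 than in sh490, where 48.3% of all genes were. Against shGFP, 26 of 33 were higher with sh1362 and 11 of 33 with sh490, where 49.2% and 50.1% of all genes were. In the middle of the list the log2 fold (median) was -0.12 for sh490, 0.40 for sh1362 and 0.48 between the hairpins, beside 0.00, -0.01 and -0.02 for all genes. Set against sh490, 6 targets were 2-fold or more higher in sh1362 and 0 were 2-fold lower. Of the neuroendocrine markers, 12 of 17 were higher in sh1362 than in sh490, with a median log2 difference of 0.47. The lists share 6 genes, and without those 23 of 28 targets (median 0.44) and 7 of 12 markers (median 0.08) were higher in sh1362. Markers outside the target list that shared the difference, picked after their values were seen, include CPE, a prohormone-processing enzyme, at 1.24 and NCAM1, a neural adhesion protein, at 1.00 between the hairpins. As a set, these 12 markers had a median of 0.08, beside -0.02 for all genes and 0.44 for the 28 targets outside the marker list. With 1 library of each hairpin this is a description of the libraries with no test, and whether REST bears on it was not tested. The sh1362 library also held the largest mitochondrial share, 7.78% of counts, and the part of that in the difference was not tested.

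The targets with the widest difference encode secretory granule and cytoskeletal proteins of neurons. SYT4, a synaptotagmin of dense-core vesicles, had 3064 counts with sh490, 9358 with sh1362 and 2377 with shGFP, log2 folds of -0.35 and 1.37 from the control. NEFM and INA, neuronal intermediate filament proteins, had 204, 607 and 123 counts and 427, 1141 and 239 counts, with log2 folds of 0.02 and 1.68 for NEFM and 0.12 and 1.64 for INA. CHGB, a granin of secretory granules, had 562, 1339 and 528 counts, log2 folds -0.62 and 0.73. NEFM, INA, CHGB, SYN1 and SCG3 were picked for naming after their values were seen. SCG2, another granin, was likewise higher in sh1362 than in sh490 but below the control with both: it had 2187, 3651 and 2727 counts, log2 folds of -1.03 and -0.19. The glutamate receptor subunit GRIN1 did not follow, with log2 folds of -0.68 and -0.93, lower still in sh1362.

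Other targets were higher with both hairpins, as INSM1 was. CACNA1A, a calcium channel subunit of nerve terminals, had 573, 939 and 183 counts, log2 folds 0.93 and 1.74, and a both-hairpin log2 fold of 1.40 with an SE of 0.41 (edgeR, p 0.00997, adjusted p 0.986, or 0.0154 without the filter on low counts). The sodium channel SCN2A had log2 folds of 0.54 and 1.21, and DISP2, a dispatched-family membrane protein, 0.80 and 1.04. In the edgeR test 0 of 41 tested targets were called, and 2 had an unadjusted p under 0.05, CACNA1A among them.

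**Figure D4:**
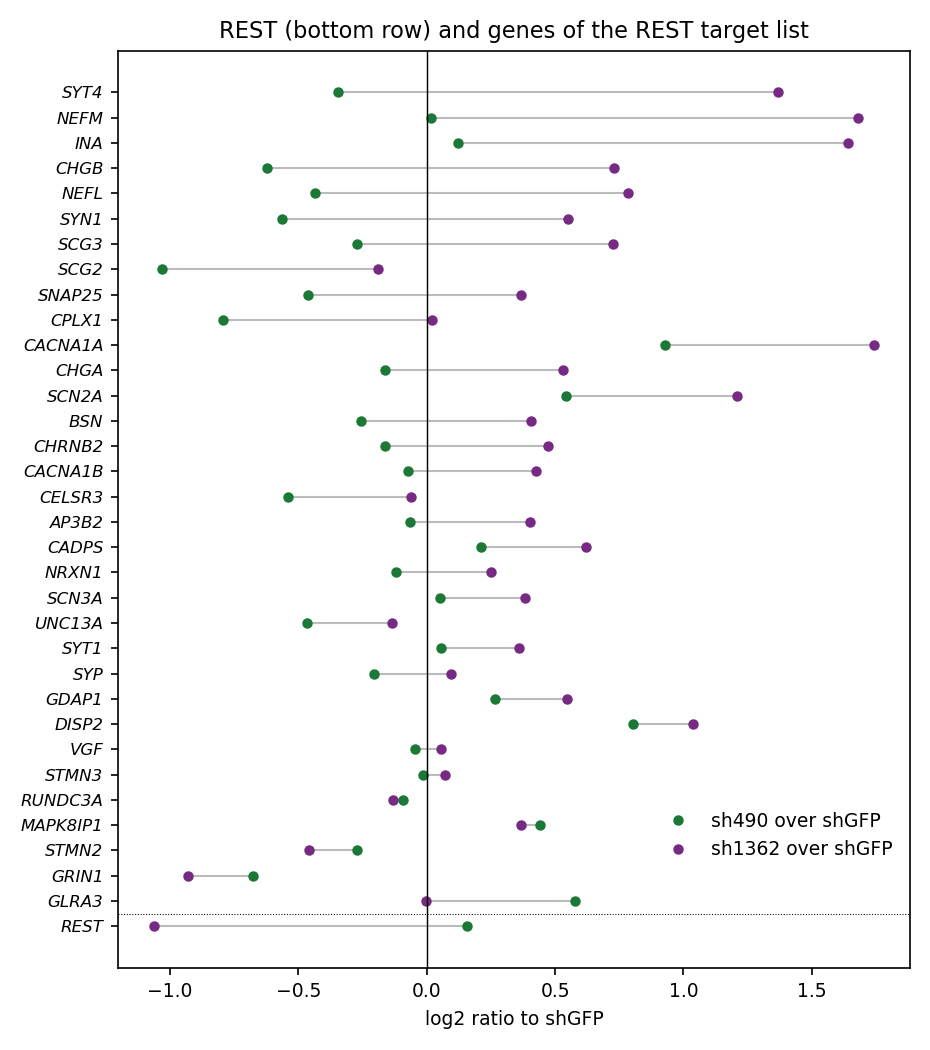
Log2 fold over shGFP of REST (bottom row) and of the REST target genes that average at least 5 CPM, with sh490 and sh1362 as separate points. In 28 of 33 targets the sh1362 point lies to the right of the sh490 point, and for REST it lies to the left.

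The RE1 element was looked for in the target promoters, as its left arm CAGCACC and right arm GGACAG on either strand. With 2 bases between the arms it was found in 0.0513% of 35116 windows, and with 2 to 8 bases in 0.105%. Of 28 target genes with a window, 3 held it with 2 to 8 bases: SYN1, a synaptic vesicle protein, SCG3, a granin-like protein, and UNC13A, a vesicle priming factor. This count is by gene and the shares above are by window, and a gene may have several windows, so they are not directly comparable. The SYN1 window (chrX:47619808-47620107, minus strand) has it 231 bases before the start, with 2 bases between the arms, and the SCG3 window (chr15:51681253-51681552, plus strand) 10 bases after it, with 8. Capitals mark both arms with the bases between them (RefSeq, GRCh38.p14).
SYN1: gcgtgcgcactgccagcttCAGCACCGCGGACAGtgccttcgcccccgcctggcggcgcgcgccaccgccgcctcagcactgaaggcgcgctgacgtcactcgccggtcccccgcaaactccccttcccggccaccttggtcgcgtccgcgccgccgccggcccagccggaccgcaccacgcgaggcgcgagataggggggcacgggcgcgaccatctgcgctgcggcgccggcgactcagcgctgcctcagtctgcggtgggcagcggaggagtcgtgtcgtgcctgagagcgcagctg
SCG3: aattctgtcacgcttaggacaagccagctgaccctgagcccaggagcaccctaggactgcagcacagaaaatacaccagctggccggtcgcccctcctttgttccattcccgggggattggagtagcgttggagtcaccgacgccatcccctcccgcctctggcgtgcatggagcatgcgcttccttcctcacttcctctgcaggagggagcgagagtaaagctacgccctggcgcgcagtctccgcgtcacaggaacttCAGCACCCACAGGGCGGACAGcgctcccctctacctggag

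SYN1 had 37 counts with sh490, 77 with sh1362 and 34 with shGFP, log2 folds -0.56 and 0.55, and a difference of 1.11 between the hairpins. SCG3 had 1158, 2155 and 854 counts, log2 folds -0.27 and 0.72, and a difference of 1.00. In both genes sh1362 was the high library and sh490 the low one relative to the control. UNC13A was lower with both, log2 folds -0.47 and -0.14. A match in these windows is a description and not a site, and RE1 elements also lie outside them.

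Corepressors and modifiers of REST had no common direction. Of 27 listed, 26 reached a mean of 5 CPM, with 7 higher with both hairpins, 11 lower with both and 8 opposite, median log2 folds 0.12 and -0.14. BTRC, the ubiquitin ligase subunit that marks REST for degradation, had 424 counts with sh490, 437 with sh1362 and 136 with shGFP, log2 folds 0.92 and 1.07 (edgeR, p 0.0127, adjusted p 0.986). It was the 1 gene of the list with an unadjusted p under 0.05, and 0 passed the adjusted test. SRRM4, the neural splicing factor that makes a truncated REST, had 40, 53 and 14 counts, log2 folds 0.74 and 1.23. BTRC and SRRM4 were higher than in shGFP with both hairpins, though SRRM4 stood at only 0.24 to 0.59 RPKM over the libraries. Gene counts measure neither REST protein nor its splice forms, and a link of either gene to REST was not tested. CTDSPL, a phosphatase that stabilises REST, was lower, with log2 folds -0.84 and -0.64, and the deacetylase HDAC1 had log2 folds of 0.20 and 0.21.

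**Figure D5:**
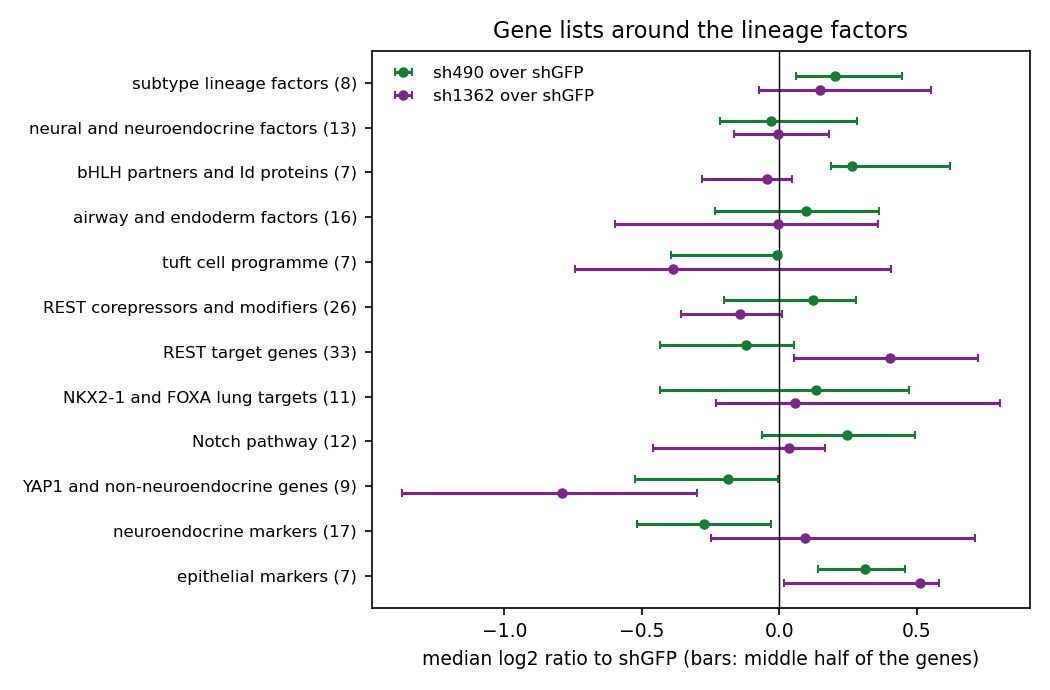
Log2 fold over shGFP for each gene list, with the median of its members with a mean of 5 CPM or more as a point and the quartiles as a bar, for sh490 and sh1362. The REST target list lies at -0.12 with sh490 and 0.40 with sh1362, and the lineage factors lie at 0.20 and 0.15.

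For each detected factor the nearest protein-coding genes by Euclidean distance between centred log2 CPM over the 3 libraries were listed. INSM1 lay nearest to CACNA1A (distance 0.0553) and UNKL, and NEUROD1 nearest to TCN2 (0.0157) and RAD50. REST was followed by SLCO5A1 and CDKN2D, NKX2-1 by THAP3 and PLEK2, and FOXA1 by ZNF527 and TCF7L2. FOXA2 had RBFOX2 and ZNF595, SOX2 had EIF4EBP1 and CDK7, and PROX1 had RNF8 and NAA60. With 3 libraries such likeness is easily met among 11638 genes, and nothing about function is read from it.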

How the data were processed

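RNA of NCI-H209 was sequenced in 3 libraries, 1 each for sh490, sh1362 and shGFP, made from polyadenylated RNA with a SMARTer kit per the labels' protocols. The deposited files hold raw counts of reads in each gene, with no normalization. The submitters' processing notes name FastQC 0.11.8, STAR 2.6.1c, featureCounts 1.6.0 and GRCh38. The file headers record featureCounts on exons of GENCODE version 32, with no strand or read-pair option, so reads of overlapping and antisense genes cannot be told apart by strand.

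From these counts the main test compared both hairpins with shGFP by edgeR 4.0.16 in R 4.3.3: TMM, filterByExpr, robust quasi-likelihood F test, two-sided, Benjamini-Hochberg over 15708 genes, and a threshold of 0.05. The fit has 1 residual degree of freedom, and shGFP, with no replicate, was taken to have the spread of the hairpin libraries. Single hairpins were compared by size, with no test, in 11638 genes that average at least 5 CPM. Log2 folds of lists, and counts of genes 2-fold apart, use CPM with a prior count of 2. Folds of the lineage factors with intervals are ratios of TMM-scaled counts with exact conditional binomial 95% intervals. RPKM used the exon length in the tables and exact Poisson intervals. Symbols were matched for 60295 genes, and GENCODE version 29 gave biotypes for 58502. Scripts were tested on simulated data.

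Alternatives were no TMM, upper quartile scaling, no filter, a filter at 5 CPM, DESeq2 1.42.0, limma-voom (limma 3.58.1), leaving out each hairpin library and, chosen after seeing the data, leaving out red cell and leukocyte genes. Named genes were all members and, per list, those past the test or else up to 4 that lay the same way with both hairpins, by the smaller fold, and the 2 most abundant in shGFP. Further names were the 2 nearest genes by pattern and genes overlapping a member. Not all genes this rule takes are printed. The members and the lists were chosen with earlier results of these data known. Some lineage factors are not reported here.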

Additional observations from a re-analysis of the deposited data

How the results depend on the processing

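Direction held for all 8 tested factors under no TMM, upper quartile scaling, no filter, the filter at 5 CPM, DESeq2, limma-voom and without blood genes. Without the filter on low counts the log2 fold of INSM1 was 1.40 and passed the edgeR test (adjusted p 0.00699). With 1 hairpin left out, the log2 fold of INSM1 ran from 0.87 to 1.75, NKX2-1 from 0.10 to 0.42, FOXA1 from 0.20 to 0.53, SOX2 from 0.23 to 0.55 and FOXA2 from -0.23 to -0.20. The direction of NEUROD1 (-0.26 to 0.57), REST (-1.08 to 0.16) and PROX1 (-0.033 to 0.18) rests on 1 hairpin: without sh1362 NEUROD1 was -0.26 and REST 0.16, and without sh490 PROX1 was -0.033. These values have no test, because no residual degree of freedom is left, and no count of calls could be made with 1 hairpin left out. The edgeR count of 4 called genes over all genes became 58 without the filter, 2 with limma-voom and 1 without blood genes. Those 4 are YES1 and the globins HBB, HBA1 and HBA2, which that last alternative removes. As CPM without length, the order in shGFP was NEUROD1 1, PROX1 2, FOXA2 3, INSM1 4, SOX2 5, NKX2-1 6, REST 7 and FOXA1 8. No paired analysis was possible because shGFP has 1 library. Depth limits what can be said of POU2F3, where 3 counts in shGFP equal 0.0928 RPKM.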

Other observations

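Genes of the YAP1 programme, which marks non-neuroendocrine small cell cancer, were lower with both hairpins in 7 of 9 members that averaged at least 5 CPM, where 34.5% of all genes were. Of the 18 listed, 1 more at that level was higher with both and 1 opposite, median log2 folds -0.19 and -0.79. YAP1, the transcriptional coactivator, had 65 counts with sh490, 11 with sh1362 and 64 with shGFP, log2 folds -0.67 and -2.92. Its partner WWTR1 had 66, 44 and 77 counts, log2 folds -0.91 and -1.37, and PLAU, a urokinase, had 70, 18 and 62, log2 folds -0.52 and -2.26. ANXA1, an annexin, was the member higher with both, at 188, 81 and 41 counts and log2 folds of 1.45 and 0.36, and was named after its values were seen. In the edgeR test 0 of the list were called at an adjusted p under 0.05, and 2 had an unadjusted p under 0.05.

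Of 21 Notch pathway genes, 12 reached a mean of 5 CPM, with 6 higher with both hairpins, 4 lower with both and 2 opposite, median log2 folds 0.25 and 0.04. NRARP, a Notch-induced inhibitor of the pathway, had 118, 112 and 41 counts, log2 folds 0.79 and 0.82, and the ligand DLL4 had 408, 504 and 187, log2 folds 0.41 and 0.81. DLL3, an inhibitory ligand of neuroendocrine cells, differed less at log2 folds of 0.18 and 0.13. JAG2 was lower, with log2 folds -0.18 and -0.58. The receptor NOTCH2 had 290, 87 and 183 counts, log2 folds -0.05 and -1.66, and was the 1 member 2-fold or more from shGFP. HES1, a Notch target, had 151, 56 and 65 counts, log2 folds 0.49 and -0.80. NOTCH2 and HES1 were named after their values were seen. In the edgeR test 0 of the list were called, and 0 had an unadjusted p under 0.05. E-cadherin, CDH1, had 1764, 3021 and 866 counts, log2 folds 0.31 and 1.19. Of 7 epithelial markers at that level 5 were higher with both hairpins and 0 lower with both, where 33.8% and 34.5% of all genes were. The edgeR test called 0 of the 8 listed epithelial markers, and 0 had an unadjusted p under 0.05.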
